A study of Homo sapiens with 20 samples.

Results

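Aminoacyl-tRNA synthetases, the enzymes that load each amino acid onto its transfer RNA, were examined in 10 human lines of T-cell acute lymphoblastic leukemia, or T-ALL, treated with the gamma-secretase inhibitor CompE or with vehicle. The family was taken by gene symbol as 19 cytosolic enzymes or enzyme subunits, 16 mitochondrial enzymes and 2 scaffold proteins, 37 genes in all. The array carried a probe set that names the gene alone for 27 of them, and 26 were bright enough to be tested, namely 16 cytosolic enzymes, 9 mitochondrial enzymes and the scaffold AIMP1. In the series as a whole 11963 genes had such a probe set and 7695 were tested. FARSB, MARS1, QARS1, AARS2, EARS2, MARS2, PARS2, TARS2, VARS2 and AIMP2 were not analysed here. RARS2, the mitochondrial arginine enzyme, was too dim to test, with a mean signal of 10.4 in CompE and 5.69 in DMSO.

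The CompE group held 1 array from each of RPMI8402, KOPTK1, HPB-ALL, PF382, DND41, ALL-SIL, MOLT3, CUTLL1, P12-ICHIKAWA and CCRF-CEM after 72 h with 100 nM of the inhibitor, the dose given in the series' design text. The DMSO group held 1 array from each of the same 10 lines after 72 h with vehicle alone. All lines carry activating NOTCH1 mutations per the design text, in CompE and DMSO alike, and gamma-secretase is the protease that frees the active part of NOTCH receptors. The labels do not say whether separate cultures were used, so each line counts as 1 pair and p-values measure the spread between lines. For P12-ICHIKAWA, MOLT3 and CCRF-CEM the growth medium named differs between the CompE and the DMSO label; the name on the DMSO label is spelled like the RPMI8402 line, so whether the media themselves differed is not settled.

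Each synthetase recognises 1 amino acid and the tRNAs that carry it, so together these enzymes supply ribosomes with charged tRNA. Cytosolic and mitochondrial protein synthesis use largely separate sets encoded by different nuclear genes, while GARS1 and KARS1 each give both a cytosolic and a mitochondrial form. Several cytosolic enzymes sit with AIMP1 and AIMP2 in a multisynthetase complex. In mammalian cells many cytosolic synthetase genes are known targets of ATF4, the transcription factor of the amino acid response, and some are known targets of MYC, which NOTCH1 activates in T-ALL.

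The lines bore their T-cell label. CD3D, a chain of the T-cell receptor complex, read 4461 to 9483 in CompE and 5699 to 9676 in DMSO, and the summed signal of 5 T-cell markers lay between 7661 and 18488 in CompE and between 7525 and 16606 in DMSO, although CD2 was dim in some lines, down to 2.61 in CompE and 20.7 in DMSO. The 3 myeloid markers summed to at most 46.9 in CompE and 49.3 in DMSO, the 2 epithelial markers to at most 129 and 153, the 2 fibroblast markers to at most 164 and 124, and the erythroid gene HBB reached 71.3 in CompE and 22.4 in DMSO. CD79A, a B-lineage gene, reached 1755 in CompE and 2469 in DMSO in single lines. The arrays had been scaled to a common mean, so a change in total RNA per cell cannot be seen and is not told apart from no change. The ratio of 3-prime to 5-prime signal of ACTB, a measure of RNA integrity, was 9.76 in CompE and 3.32 in DMSO in KOPTK1, against 1.22 to 1.99 in CompE and 1.02 to 1.77 in DMSO in the other lines. Its part in the results was not tested beyond the values with that ratio in the model and without KOPTK1 that are given with the results.

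Of the 26 tested genes, 5 fell under CompE and 0 rose. The 5 were GARS1, IARS1, EPRS1, TARS1 and YARS1, all cytosolic enzymes. Over all 7695 genes 3.24% fell and 3.94% rose, so the share of members that fell, 19.2%, lay above the background. With the filter at the 60th percentile, which keeps brighter genes, 5 of 24 members fell, beside 5.01% of all genes tested. The test was limma with cell line as a block, with Benjamini-Hochberg adjusted p under 0.05 over all genes. At an unadjusted p under 0.05, 14 members were lower and 0 were higher, beside 764 and 1170 of all genes. The fitted change was below 0 for 23 of the 26 members, or 88.5%, and for 41.1% of all genes. The median change of the members was -0.22, where that of all genes was 0.04; every change is on the log2(signal + 16) scale, CompE minus DMSO. Centring each array on its median instead of keeping the authors' scaling gave 340 lower and 116 higher genes, against 249 and 303, and 7 members lower.

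**Figure D1:**
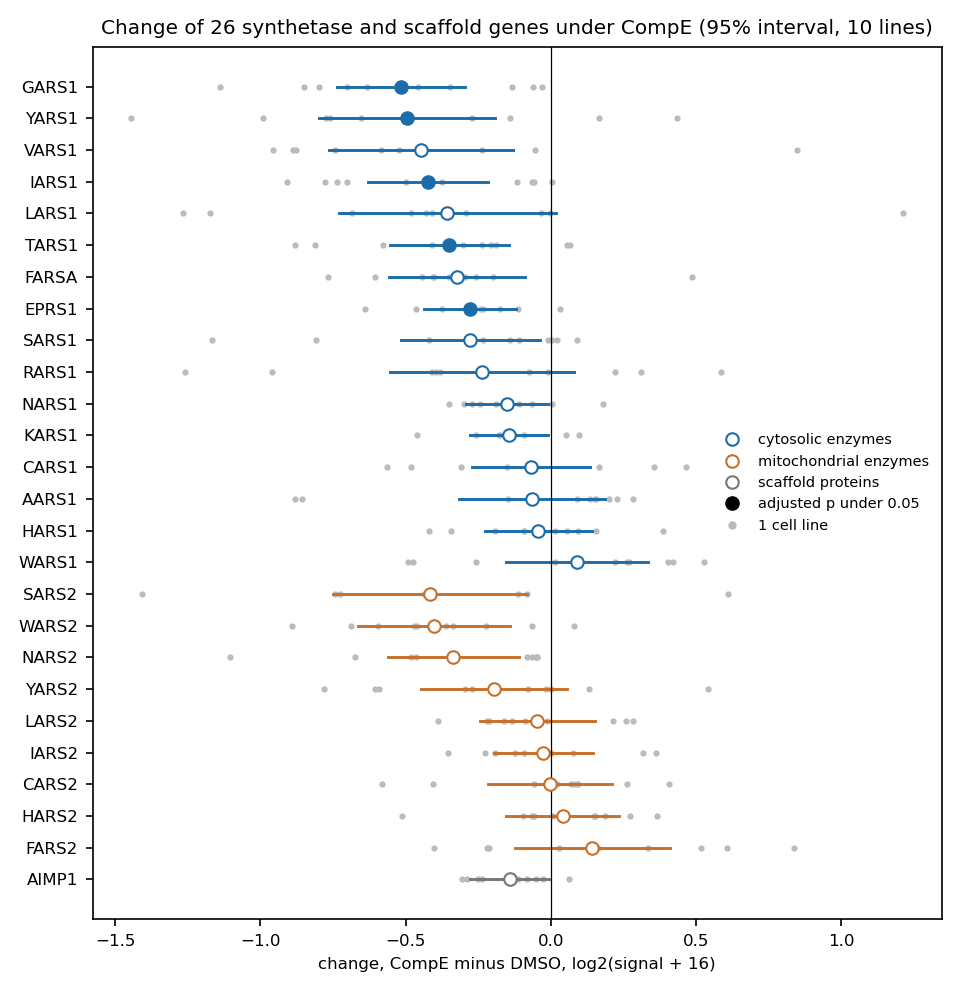
Change of the 26 tested genes under CompE, with the gene down the page and the log2(signal + 16) difference, CompE minus DMSO, along the axis. Large points are the fitted change over 10 lines with its 95% interval, filled where the adjusted p was under 0.05, and small grey points are single lines; the 5 filled points are all cytosolic and lie between -0.52 and -0.28.

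GARS1, which charges glycine tRNA in both compartments, showed the largest fall over the 10 lines. Without KOPTK1 the changes of YARS1 (-0.60) and VARS1 (-0.59) were larger than its -0.57, and with the ACTB ratio in the model those of LARS1 (-0.74), VARS1 (-0.71) and YARS1 (-0.69) were larger than its -0.63. Its signal was lowest at 958 in CompE, with a median of 1255 and a highest value of 1873, against 1250.3, 1907 and 2655 in DMSO. The groups overlapped, but within lines the CompE array was the lower one in 10 of 10, from -1.14 in HPB-ALL to -0.03 in P12-ICHIKAWA. The mean signal was 1330.1 ± 300 in CompE and 1908 ± 418 in DMSO (SD, n = 10 each), a fitted change of -0.52 ± 0.104 (SE; limma adjusted p = 0.0127). GARS1 passed the threshold without any 1 of the 10 lines, with adjusted p between 0.0042 and 0.0367.

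IARS1, the cytosolic isoleucine enzyme and a member of the multisynthetase complex, fell by 0.42 (SE 0.0973, limma adjusted p = 0.0201). Its CompE signals had a lowest value of 924, a median of 2151 and a highest value of 3142, against 1594, 2529 and 3410.4 in DMSO. KOPTK1 was the lowest line in both groups and CCRF-CEM the highest. IARS1 was lower in CompE in 9 of 10 lines, most in HPB-ALL at -0.91, and P12-ICHIKAWA was level at 0.00. Its adjusted p rose to 0.0517 without DND41 and 0.0552 without HPB-ALL, and to 0.103 with the ACTB ratio in the model, with a change of -0.33.

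EPRS1 encodes the fused enzyme for glutamate and proline, also in the complex. Its signal had a lowest value of 569.9, a median of 771 and a highest value of 1314 in CompE, against 617, 944 and 1546 in DMSO. The 2 ranges overlapped over most of their width, and the fall, of -0.28 ± 0.0753 (SE; limma adjusted p = 0.0376), was seen within 9 of 10 lines. Its other probe sets showed larger mean changes, -0.61, lower in 10 of 10 lines, and -0.46, lower in 9 of 10. The latter probe set rose by 2.12 in KOPTK1, with 681 in CompE and 144 in DMSO. Its changes in the other lines lay between -1.87 and -0.28. The adjusted p stayed under 0.05 when KOPTK1 or P12-ICHIKAWA was left out and lay between 0.0577 and 0.0967 without any other 1 line. It was 0.0599 without the intensity trend and 0.079 without CCRF-CEM, MOLT3 and P12-ICHIKAWA together.

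TARS1, the cytosolic threonine enzyme, had CompE signals with a lowest value of 753, a median of 1037 and a highest value of 1906, against 933, 1303 and 1867 in DMSO. The fall of -0.35 ± 0.0961 (SE; limma adjusted p = 0.0397) was carried by 8 of 10 lines, with HPB-ALL at -0.88 and DND41 at -0.81. CCRF-CEM and P12-ICHIKAWA were slightly above 0, at 0.07 and 0.06. The adjusted p stayed under 0.05 without CCRF-CEM, KOPTK1 or P12-ICHIKAWA, lay between 0.0616 and 0.101 without any other 1 line, and was 0.0912 with the ACTB ratio in the model, 0.0535 with no filter and 0.068 without the intensity trend.

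YARS1, the cytosolic tyrosine enzyme, whose fragments are also known as secreted signalling proteins, had CompE signals with a lowest value of 595, a median of 967 and a highest value of 2038.5, against 711, 1518 and 2249 in DMSO. HPB-ALL stood at 595 in CompE and 1648 in DMSO, a change of -1.44, while KOPTK1 ran the other way at 967 in CompE and 711 in DMSO, a change of 0.44, as did P12-ICHIKAWA at 0.16. Over the 10 lines YARS1 fell by 0.49 (SE 0.143, limma adjusted p = 0.0472), lower in 8 of 10. This call was the closest to the threshold and held without KOPTK1 or P12-ICHIKAWA, with adjusted p of 0.00797 and 0.0322, but not without any other 1 line, where it was 0.0531 to 0.117. YARS1 passed in 6 of 12 other alternatives; its adjusted p was 0.0571 with a pseudocount of 1, 0.0702 with no filter, 0.0554 with averaged probe sets, 0.079 without the intensity trend and 0.0629 without CCRF-CEM, MOLT3 and P12-ICHIKAWA together.

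**Figure D2:**
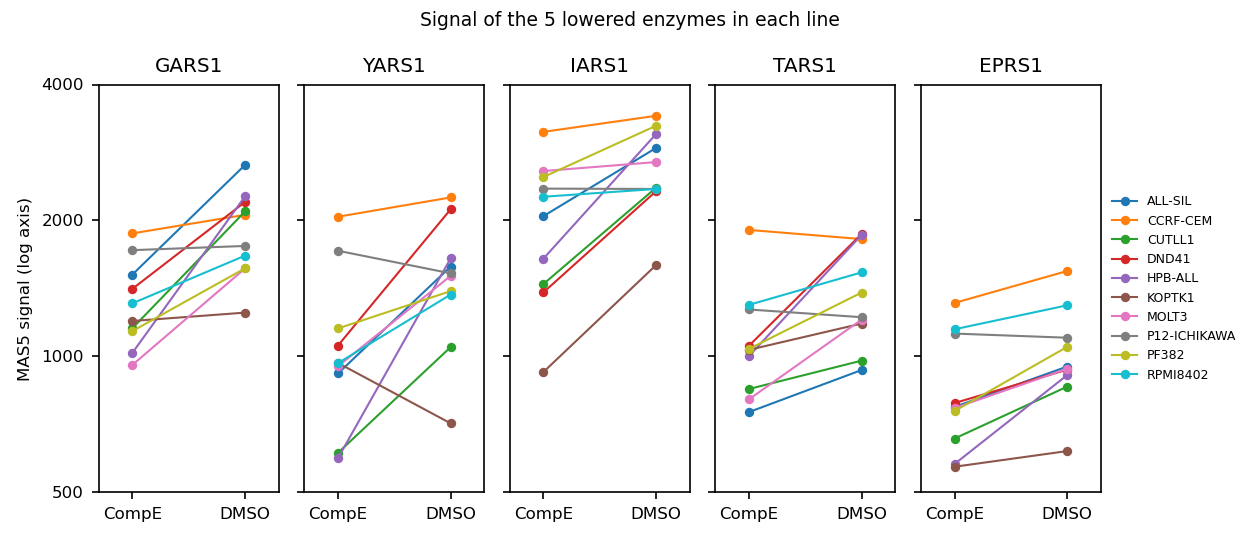
Signals of GARS1, IARS1, EPRS1, TARS1 and YARS1 in the 10 lines, CompE at the left of each panel and DMSO at the right, on a log axis, with a line joining the 2 arrays of a cell line. Most lines slope down towards CompE, the ranges of the groups overlap in every panel, and KOPTK1 and P12-ICHIKAWA slope the other way for YARS1.

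The 250 bases before the listed start of the synthetase genes were searched on both strands for 2 elements. They were chosen because many cytosolic synthetase genes are known ATF4 targets and some are known MYC targets. Whether either factor had a part in the changes was not tested. The C/EBP-ATF element was written as TGATGNAA and the E-box bound by MYC as CACGTG, which reads the same on either strand. The matches did not overlap each other in any window shown. Windows were found for 32 of the 37 genes in the RefSeq promoter table (GRCh38.p14); the table held none for LARS1, VARS1, YARS1, AARS2 and VARS2. The C/EBP-ATF element was found in AARS1, GARS1 and IARS1 of 16 cytosolic genes and in YARS2 of 14 mitochondrial genes, and in 3.89% of all 27305 genes with a window. The windows of EPRS1 and TARS1 did not hold those letters. The sequences are shown 5′ to 3′ along each gene, with the match in capitals; on 3 of them the element lies on the opposite strand, so the capitals are its reverse complement.
AARS1, chr16:70289675-70289704, minus strand: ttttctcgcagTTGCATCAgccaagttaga
GARS1, chr7:30594834-30594863, plus strand: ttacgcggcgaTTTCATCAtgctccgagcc
YARS2, chr12:32756076-32756105, minus strand: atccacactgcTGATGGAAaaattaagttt

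The GARS1 stretch belongs to the downstream of 2 start sites listed for that gene. IARS1 was the member whose window held both elements, and it is shown as all 250 bases before its start, with the E-box at -186 to -181 and the C/EBP-ATF element at -13 to -6 in capitals.
IARS1, chr9:92293698-92293947, minus strand: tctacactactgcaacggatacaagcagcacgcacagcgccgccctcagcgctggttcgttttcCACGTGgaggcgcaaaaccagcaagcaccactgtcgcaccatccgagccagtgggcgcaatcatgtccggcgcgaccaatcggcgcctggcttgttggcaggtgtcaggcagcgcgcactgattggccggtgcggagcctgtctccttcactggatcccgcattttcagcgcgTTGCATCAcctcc

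The E-box was also found before EARS2, MARS2 and AIMP2, none of which was analysed for expression here, so in 4 of 32 members with a window, against 7.73% of all genes with one. A match describes these letters and shows no binding. Among the genes with a C/EBP-ATF match, GARS1 and IARS1 fell, while AARS1 changed by -0.06 (limma adjusted p = 0.783) and YARS2 by -0.20 (adjusted p = 0.311).

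The remaining 11 cytosolic enzymes did not pass the test. VARS1, the valine enzyme, had a lowest CompE signal of 120, a median of 179 and a highest of 275, against 67.3, 261 and 396 in DMSO. KOPTK1 alone was higher in CompE, at 134 against 67.3 in DMSO, and the other 9 lines had changes between -0.96 and -0.05. The fitted change was -0.45 (95% interval -0.76 to -0.13, limma adjusted p = 0.0784). FARSA, the catalytic subunit of the phenylalanine enzyme, gave the same picture, with a change of 0.49 in KOPTK1, changes between -0.77 and -0.20 in the others, and a fit of -0.32 (-0.56 to -0.09, adjusted p = 0.0825). LARS1, the leucine enzyme and a known leucine sensor for mTORC1, changed by 1.21 in KOPTK1 and by -1.27 to 0.00 elsewhere, with a fit of -0.36 (-0.73 to 0.02, adjusted p = 0.221).

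KOPTK1 therefore stood apart in 3 of these enzymes. Its DMSO signals were 67.5 for FARSA, 67.3 for VARS1 and 153 for LARS1, while the lowest DMSO signals among the other 9 lines were 215, 145 and 357.5. Without KOPTK1, limma called 9 members lower, 8 cytosolic and 1 mitochondrial, against 6.09% of all genes lower. The 4 added were VARS1 at -0.59 (adjusted p = 0.00448), FARSA at -0.41 (0.00789), LARS1 at -0.53 (0.0132) and the mitochondrial serine enzyme SARS2 at -0.53 (0.0233). With all 10 lines kept and the ACTB ratio in the model, VARS1, LARS1 and FARSA also passed, at adjusted p of 0.0228, 0.0228 and 0.0445. The log2 change of that ratio was 1.56 in KOPTK1 and between -0.05 and 0.54 in the other lines. This fit is therefore not independent of the one without KOPTK1. Leaving out DND41 or HPB-ALL instead left 1 member called, GARS1, while 2 were called without ALL-SIL, CUTLL1, MOLT3, PF382 or RPMI8402 and 3 without CCRF-CEM. The share of all genes lower also shrank, to 1.4% without DND41 and 1.1% without HPB-ALL, beside 3.24% with all lines. It lay between 1.12% without RPMI8402 and 2.59% without CCRF-CEM in the other fits of that sentence. The second probe sets of FARSA and VARS1 showed -0.06 and -0.07, each lower in 5 of 10 lines, so the 2 probe sets of either gene disagreed.

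SARS1, the serine enzyme, and RARS1, the arginine enzyme, varied widely between lines. SARS1 had changes between -1.17 in HPB-ALL and 0.09 in CCRF-CEM, with a fit of -0.28 (95% interval -0.52 to -0.04, limma adjusted p = 0.139). RARS1 ranged from -1.26 in MOLT3 and -0.96 in PF382 to 0.59 in CUTLL1, around a fit of -0.24 (-0.55 to 0.08, adjusted p = 0.336), which was -0.12 without MOLT3 and -0.16 without PF382. NARS1 and KARS1, for asparagine and lysine, had narrower spreads, with fits of -0.15 and -0.15, each lower in 8 of 10 lines (adjusted p = 0.166 for both). KARS1 passed when its probe sets were averaged, at -0.23 with an adjusted p of 0.039, its second probe set being at -0.31.

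AARS1, CARS1, HARS1 and WARS1, for alanine, cysteine, histidine and tryptophan, had fitted changes between -0.07 and 0.09. AARS1 split the lines, with -0.86 in CUTLL1, -0.88 in HPB-ALL and values between -0.15 and 0.28 in the other 8. Its signals were 862 in CompE and 1575 in DMSO in CUTLL1, and 587 in CompE and 1096 in DMSO in HPB-ALL. WARS1, which interferon is known to induce, was at 0.09 with 3 of 10 lines lower, whereas its dimmer probe set was at -0.48 with 8 of 10 lower, so its direction depended on the probe set. CARS1 had -0.07 and -0.24 in its 2 probe sets.

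**Figure D3:**
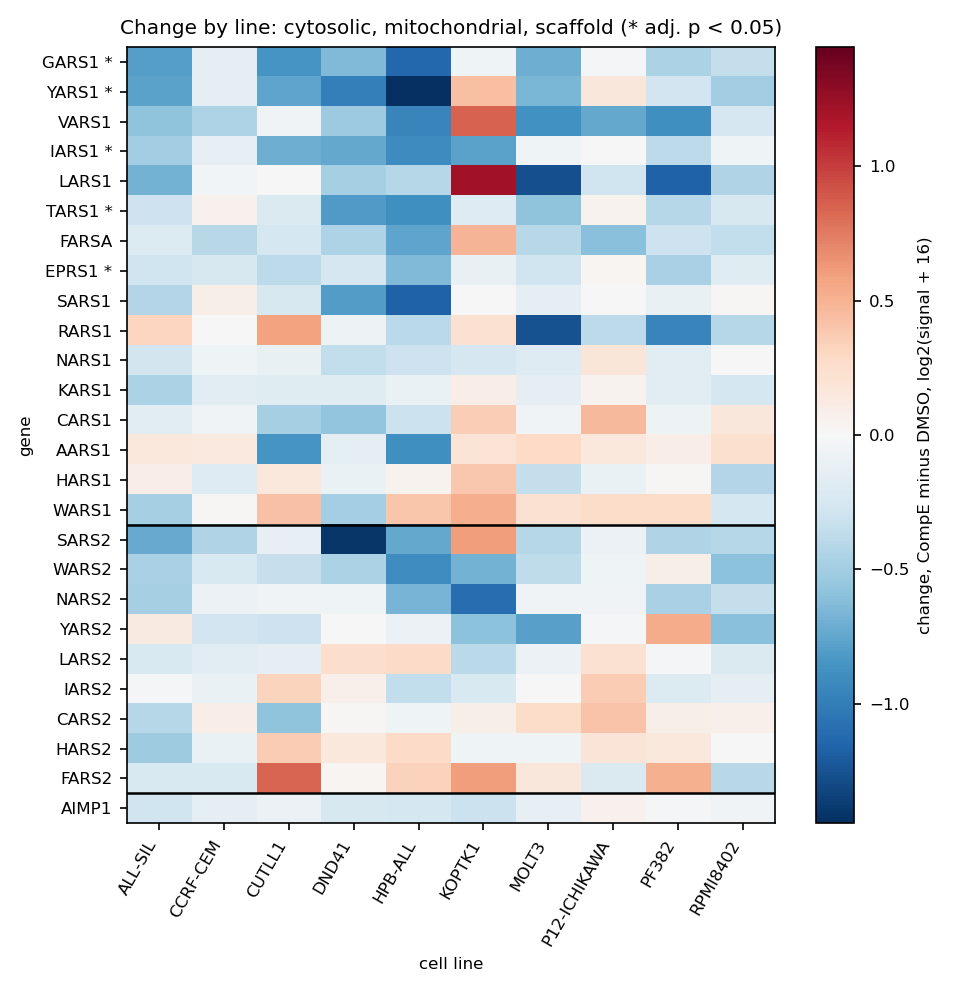
Change of each tested gene in each cell line, CompE minus DMSO on the log2(signal + 16) scale, with genes down the page in 3 blocks (cytosolic enzymes, mitochondrial enzymes, the scaffold AIMP1), lines across and colour for the change; an asterisk marks an adjusted p under 0.05. HPB-ALL is blue in most cytosolic rows, with a median of -0.70, while KOPTK1 is red in LARS1 at 1.21 and VARS1 at 0.85.

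None of the 9 tested mitochondrial enzymes passed. At an unadjusted limma p under 0.05, 764 of all 7695 genes were lower and 1170 higher. Of the 9 enzymes, 3 were lower and 0 higher at that level. These 3 were WARS2, NARS2 and SARS2, for tryptophan, asparagine and serine. Their mean DMSO signals, 82.2, 597 and 97.4, lay under the 1020 of EPRS1, the dimmest of the 5 genes that fell. Whether signal had a part in which genes passed was not tested. NARS2 was lower in CompE in 10 of 10 lines, with a lowest signal of 274, a median of 425 and a highest of 723 in CompE, against 356, 614 and 850.3 in DMSO. In 5 of those lines, CCRF-CEM, CUTLL1, DND41, MOLT3 and P12-ICHIKAWA, the difference was under 0.1, and KOPTK1 had the largest, -1.10. The fitted change of NARS2 was -0.34 (95% interval -0.56 to -0.11, adjusted p = 0.0653).

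WARS2 was dim, with a lowest signal of 38.4, a median of 49.4 and a highest of 93.6 in CompE, against 47.5, 78.3 and 122 in DMSO. It was lower in 9 of 10 lines, with a fit of -0.40 (95% interval -0.66 to -0.14, limma adjusted p = 0.059). Under 5 of the 11 alternatives in which it was tested and that kept all lines or left out the 3 lines whose labels name another medium, WARS2 passed the threshold, with the smallest adjusted p of 0.0267. It was too dim for the filter at the 60th percentile. With 1 line left out at a time it passed in 0 of 10 fits, with adjusted p between 0.0543 and 0.147. The adjusted p was 0.212 with the ACTB ratio in the model. SARS2, also dim, ranged from -1.41 in DND41 to 0.61 in KOPTK1, with a fit of -0.42 (-0.75 to -0.08, adjusted p = 0.112).

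The other 6 mitochondrial enzymes had fits between -0.20 for YARS2 and 0.14 for FARS2. CARS2, IARS2, LARS2 and HARS2 lay between -0.05 and 0.04, with 95% intervals that kept within -0.24 and 0.24. FARS2, the mitochondrial phenylalanine enzyme, differed most between lines of all 26 genes, by 15.5-fold in DMSO. Its signal was 1782 in CompE and 1589 in DMSO in MOLT3, 912 and 594 in KOPTK1, 421 and 229 in CUTLL1, and 73.8 to 179 in CompE and 103 to 139 in DMSO in the other 7. A second FARS2 probe set did not share this pattern, reading 244 in CompE and 130 in DMSO in MOLT3, 134 and 109 in KOPTK1, and 127 and 135 in CUTLL1. AIMP1, the scaffold, changed by -0.14 (95% interval -0.28 to 0.00, adjusted p = 0.188), lower in 9 of 10 lines.

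By group, the median change was -0.28 for the 16 cytosolic enzymes and -0.05 for the 9 mitochondrial ones, beside 0.04 for all genes. Changes below 0 were found for 15 of 16 cytosolic and 7 of 9 mitochondrial enzymes. The 2 medians differed by -0.23, with no test, since the members were chosen with results of these data known. The difference was -0.15 without HPB-ALL, the smallest over all alternatives. Line by line the difference was uneven. The cytosolic median was the lower one in 5 of 10 lines, with differences of -0.62 in HPB-ALL, -0.51 in DND41, -0.36 in PF382, -0.25 in MOLT3 and -0.10 in CUTLL1. It was the higher one by 0.44 in KOPTK1 and by 0.10 or less in ALL-SIL, CCRF-CEM, P12-ICHIKAWA and RPMI8402, so the difference averaged -0.12 ± 0.320 (SD, n = 10).

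**Figure D4:**
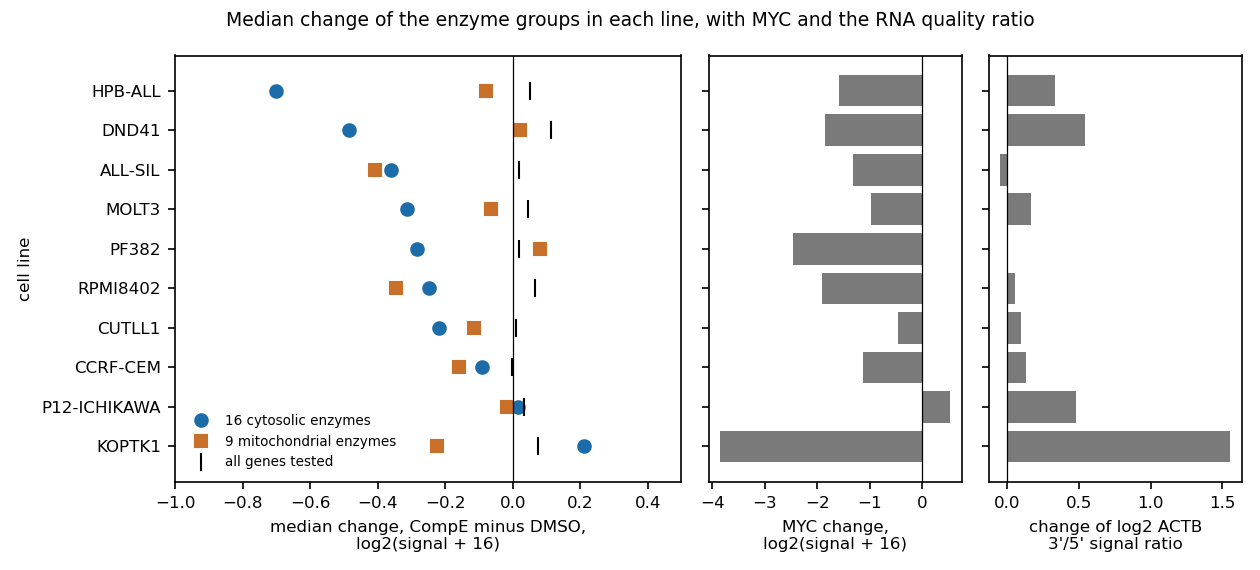
Median change of the cytosolic and of the mitochondrial enzymes in each of the 10 cell lines, CompE minus DMSO on the log2(signal + 16) scale. Cytosolic medians lie between -0.70 in HPB-ALL and 0.21 in KOPTK1, mitochondrial medians between -0.41 in ALL-SIL and 0.08 in PF382.

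For 9 amino acids both the cytosolic and the mitochondrial enzyme were tested, and the change of the pair was compared within lines by an exact sign-flip permutation test over 10 lines (1024 patterns, two-sided), adjusted over the 9 pairs; this comparison was chosen after the values had been seen. The change of IARS1 minus that of IARS2 was -0.40 ± 0.354 (SD, n = 10), below 0 in 9 of 10 lines, with exact p = 0.00781 and 0.0234 adjusted. FARSA minus FARS2 was -0.47 ± 0.426 (SD, n = 10), below 0 in 8 of 10 lines, with the same exact p. FARSA is only a subunit of the cytosolic enzyme, and FARSB was not analysed here. The second FARSA probe set changed by -0.06, lower in 5 of 10 lines. WARS1 minus WARS2 was 0.49 ± 0.469 (SD, n = 10), above 0 in 8 of 10 lines, again with exact p = 0.00781.

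The unadjusted exact p of these 3 pairs stayed at or under 0.0156 without any 1 line. With all probe sets of a gene averaged, an alternative added after seeing the data, the tryptophan pair no longer passed (0.21, adjusted exact p = 0.343), while the isoleucine and phenylalanine pairs did (both 0.0439), at -0.40 and -0.27. The asparagine, leucine, tyrosine, serine, histidine and cysteine pairs differed by 0.19, -0.31, -0.30, 0.14, -0.08 and -0.07, with adjusted exact p between 0.207 and 0.463. Spreads were wide in the leucine and tyrosine pairs, with SDs of 0.811 and 0.730, and KOPTK1 gave the highest difference of both.

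**Figure D5:**
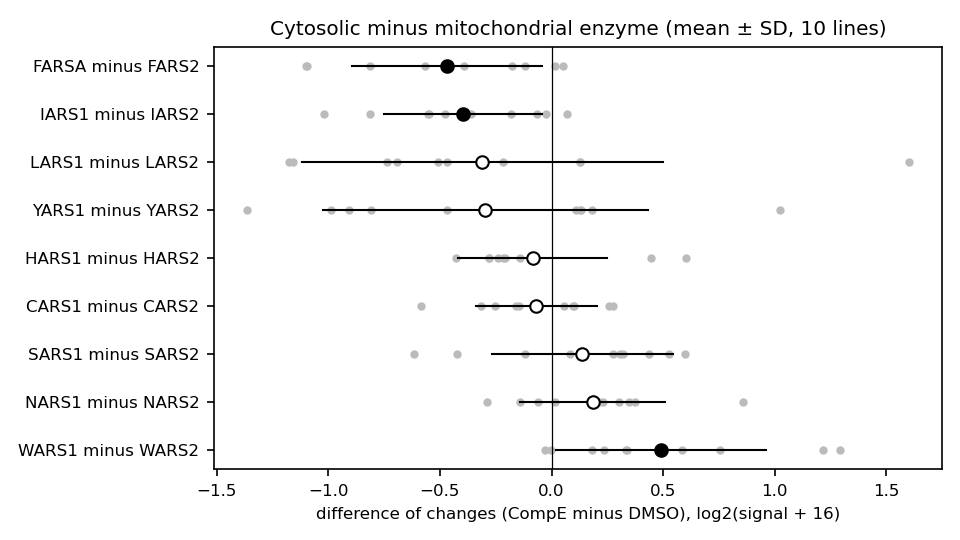
Change of the cytosolic enzyme minus change of the mitochondrial enzyme for 9 amino acids, on the log2(signal + 16) scale; large points are means over 10 lines with SD bars, filled where the adjusted exact p was under 0.05, and small points are single lines. The phenylalanine and isoleucine pairs lie left of 0, at -0.47 and -0.40, and the tryptophan pair right of it, at 0.49.

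Within the cytosolic set, lists drawn from general knowledge, with earlier results of these data known, were compared by counts. Of the 5 tested enzymes of the multisynthetase complex, EPRS1 and IARS1 fell, and the median change was -0.28. IARS1 and YARS1 fell among 7 class I enzymes (median -0.36), the class with a Rossmann-fold catalytic domain, and GARS1 and TARS1 among 8 class II enzymes (median -0.21). EPRS1 joins both classes and was left out of that split. Known ATF4 targets made up 12 of the 16 tested cytosolic enzymes (median -0.31), and all 5 genes that fell were among them. Of the other 4, FARSA, HARS1, KARS1 and RARS1, 0 passed in the main fit (median -0.19), with 2 at an unadjusted limma p under 0.05. FARSA passed without KOPTK1 (limma adjusted p = 0.00789) and KARS1 with averaged probe sets (0.039). With so few enzymes outside the list, these counts cannot tell the ATF4 targets from the others. Over all 7695 genes 3.24% fell, and 764 were lower at an unadjusted limma p under 0.05. No test was made between these lists.

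Across lines, the 5 genes that fell varied together. HPB-ALL had the lowest median change over the 5, -0.91, followed by DND41 at -0.74 and CUTLL1 at -0.70, and P12-ICHIKAWA the highest, 0.03, with 1 of the 5 lower. The median Pearson r between their changes over 10 lines was 0.69 (10 pairs of genes), against 0.38 among the cytosolic enzymes (120 pairs) and 0.07 among the mitochondrial enzymes (36 pairs). These are descriptions, since the genes share the arrays and their scaling. The 5 genes were also picked by a test on these same changes, and their 10 pairs are among the 120 cytosolic pairs. No difference between the groups is therefore read from these medians. MYC fell by 1.50 (SE 0.282, limma adjusted p = 0.0107), with a mean signal of 629 in CompE and 1815 in DMSO. MYC was lower in 9 of 10 lines. It changed by 0.53 in P12-ICHIKAWA, where the median over the 5 genes was 0.03, and by -3.85 in KOPTK1, where that median was -0.11 with 4 of the 5 lower. The RNA of ATF4 itself changed by -0.07 ± 0.0908 (SE, limma adjusted p = 0.684), between -0.54 in HPB-ALL and 0.59 in KOPTK1. The protein and activity of ATF4 were not measured on these arrays.

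Other genes of tRNA supply were read from lists drawn from general knowledge, with earlier results of these data known. Over all genes 3.24% fell and 3.94% rose. Of 35 tested genes of tRNA maturation, modification and export, 3 fell, or 8.57%, and 1 rose (median -0.12). The 3 were SSB, the La protein that protects new RNA polymerase III transcripts (-0.49, limma adjusted p = 0.0141), XPOT, the nuclear exporter of tRNA (-0.44, 0.016), and PUS7, a pseudouridine synthase (-0.59, 0.0198). Mean signals in CompE and DMSO were 667 and 961 for SSB, 991 and 1341 for XPOT, and 222 and 329.96 for PUS7. ADAT1, which deaminates an adenosine of alanine tRNA, rose by 0.45 (adjusted p = 0.0329), with means of 250.3 in CompE and 188 in DMSO.

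Of 19 tested genes of RNA polymerase III and its factors, 0 passed in limma, with 8 lower and 1 higher at an unadjusted p under 0.05 (median -0.16). Over all 7695 genes, 764 were lower and 1170 higher at that level. The smallest adjusted p values were those of POLR1C (-0.32, 0.0672) and POLR1D (-0.20, 0.0684), subunits shared with RNA polymerase I, GTF3C1 (0.30, 0.089) and GTF3C4 (-0.31, 0.101), both of the factor TFIIIC. The GatCAB enzyme, which makes mitochondrial glutaminyl-tRNA, gave -0.35 for GATC, 0.13 for GATB and -0.08 for QRSL1, with adjusted p of 0.202, 0.537 and 0.641 and 0 of 3 under 0.05 unadjusted.

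In a list of 24 genes of the GCN2-ATF4 response, 5 of 21 tested genes fell, or 23.8%, and 0 rose (median -0.40). Over all genes the shares were 3.24% and 3.94%. SLC7A5, a transporter of large neutral amino acids, fell by 1.17 (SE 0.232, limma adjusted p = 0.0123), with a mean of 524 in CompE and 1100.2 in DMSO, lower in 9 of 10 lines. XPOT is also on this list. CEBPB and CEBPG, transcription factors that pair with ATF4, fell by 0.43 and 0.40 (adjusted p = 0.0334 and 0.0399), CEBPG in 10 of 10 lines. The fifth was MTHFD2, a mitochondrial folate enzyme named here after its value was seen, at -0.58 (adjusted p = 0.0413).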

How the data were processed

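RNA of 10 T-ALL lines was measured on 20 Affymetrix arrays, 10 with CompE and 10 with DMSO. The authors deposited MAS5 signal intensities, per the submitters' processing notes; its version and settings were not given in the sources used here. The mean of each array without its top and bottom 2% of probe sets was 250 (249.9 to 250.1), so the authors had scaled the arrays to 1 target. MAS5 values are noisy near 0.

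Of 22277 probe sets, 62 controls were left out; 19064 named 1 gene, 1043 several and 2164 were unlisted. Each gene kept 1 probe set, that of the highest mean log2(signal + 16) over 20 arrays, and genes under the 40th percentile (a signal of about 32.5) were not tested. The probe sets of MARS1, QARS1 and TARS2 name a second gene and were not used. limma 3.58.1 (R 4.3.3) fitted CompE minus DMSO with an intensity trend, a fixed block per line and Benjamini-Hochberg adjustment over 7695 genes. The labels pair the arrays by line, and each of the 10 CompE arrays had its highest correlation with its own line's DMSO array. Sign-flip tests were exact. The code was tested on simulated data. The number of arrays limits precision.

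Members and lists were chosen with earlier results of these data known. Every member is named, plus MYC, ATF4 and up to 4 genes per related list with the smallest adjusted p; MTHFD2 was added after its value was seen. Alternatives changed the pseudocount, filter, scaling, probe set rule, block, trend, ACTB covariate and lines.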

Additional observations from a re-analysis of the deposited data

Results flagged for a closer look

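In 81 sets of 10 values, 9 single values lay farther from the rest than Dixon's 95% limit. The sets were the change, the CompE signal and the DMSO signal of each of the 26 tested genes. Added to these were the cytosolic median change, the mitochondrial median change and their difference in each line. Chance alone marks about 1 in 20 such sets. KOPTK1 gave 5 of the 9 values. Its change was 0.49 for FARSA, where the other 9 lines lay between -0.77 and -0.20, 1.21 for LARS1, where the others lay between -1.27 and 0.00, and 0.85 for VARS1, where the others lay between -0.96 and -0.05. Its DMSO signal was 67.5 for FARSA, under 215 to 392 in the others, and 1594 for IARS1, under 2323 to 3410.4. KOPTK1 was also the line with the highest ACTB ratio in CompE and in DMSO, whose part in these values was not tested.

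HARS2 in ALL-SIL had a change of -0.51, below -0.10 to 0.37 in the other lines, and a CompE signal of 195, below 348 to 472. LARS2 was lowest in HPB-ALL in both groups, at 142 in CompE (other lines 231 to 301) and 114 in DMSO (other lines 216 to 364).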

How the results depend on the processing

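The arrays of a line are paired by the labels. With no replicate block, 0 of 7695 genes were called by limma (552 with it), and so 0 members, 0 cytosolic enzymes lower; 369 genes and 6 members had an unadjusted p under 0.05, against 1934 and 14 with the block. Genes called in all numbered 318 with the ACTB ratio in the model and 298 without CCRF-CEM, MOLT3 and P12-ICHIKAWA. Members lower, 5 in the main setting, numbered 3 with no filter, without the intensity trend and without those 3 lines, and 4 to 7 under the other alternatives that kept all lines. Cytosolic enzymes lower numbered 3 with no filter, 2 without the trend and 3 without those lines. Mitochondrial enzymes lower, 0 in the main setting, numbered 1 with quantile normalization, median centring, averaged probe sets and no trend, in each case WARS2, and 2 with lines as a random block, WARS2 and SARS2. Leaving out 1 line at a time gave 181 to 1031 genes called, 1 to 9 members, 1 to 8 cytosolic and 0 to 1 mitochondrial enzymes lower, lowest without DND41 or HPB-ALL among members and highest without KOPTK1; the count was 2 without ALL-SIL, CUTLL1, MOLT3, PF382 or RPMI8402, 3 without CCRF-CEM and 5 without P12-ICHIKAWA. Members higher were 0 in all 22 alternatives.

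The median of the cytosolic enzymes lay between -0.35 and -0.23 and that of the mitochondrial enzymes between -0.12 and -0.01 in all 22. Fitted changes near 0 changed sign: HARS1 to 0.028 without the 3 lines, WARS1 to -0.20 with averaged probe sets and -0.010 with the ACTB ratio, HARS2 to -0.031 with median centring, and, with 1 line left out at a time, AARS1 ranged over -0.103 to 0.027, CARS2 over -0.048 to 0.062 and IARS2 over -0.069 to 0.011. The cause was not tested. Median centring shifted the median of all genes to -0.03. Dim members (WARS2, SARS2) are limited by signal over background.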
